A study of Homo sapiens with 4 samples.

Results

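The genes described here encode 9 proteins of the cell surface that are used, or have been tried, as targets for antibodies, radioligands or engineered T cells in prostate cancer: FOLH1, STEAP1, STEAP2, STEAP4, PSCA, CD276, CEACAM5, DLL3 and TSPAN1. They were taken by gene name from a table of 60606 genes, and each name matched 1 row. RNA was measured in LNCaP-DaroR cells, a single line derived from LNCaP, an androgen receptor-positive prostate cancer line, by growth in rising amounts of the antiandrogen darolutamide. The paper describes DaroR cells as kept in medium with darolutamide, also for the knockdown, so the drug is shared by both groups. There were 2 siControl libraries, from cells given control siRNA, and 2 siLOC730101 libraries, from cells given a pool of siRNAs against the long non-coding RNA LOC730101. Both groups carry the same resistant background and no parental LNCaP library was analysed here, so that the levels below describe resistant cells and the comparison is that of the knockdown.

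Surface antigens differ in how they sit in the membrane and in what they do. FOLH1, better known as prostate-specific membrane antigen or PSMA, is a peptidase of the outer surface that trims glutamate from folates and from a neuropeptide. The STEAP proteins span the membrane several times and move electrons to iron and copper. TSPAN1 is a tetraspanin, CD276 (B7-H3) is an immune checkpoint molecule of the B7 family, PSCA and CEACAM5 are held by a lipid anchor, and DLL3 is a Notch ligand that mostly inhibits the pathway. In the prostate, FOLH1 and the STEAP genes are marks of luminal cells, while DLL3 is known from neuroendocrine tumors.

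Library totals ranged from 39213498 to 53368158 counts. LOC730101, listed as ENSG00000216775, had 2560 and 2370 counts in siControl against 633 and 680 in siLOC730101 and fell by 1.56 on the log2 scale (adjusted p = 4.34e-06 by the quasi-likelihood test of edgeR). The labelled cell type was checked against its markers. All 10 luminal markers were tested, and their summed level was 7593 and 6992 normalized CPM (counts scaled to library size) in siControl and 7635 and 7976 CPM in siLOC730101. Of 9 neuroendocrine markers, CHGA, CHGB, INSM1 and NEUROD1 had 0 counts in every library, where 3 counts, the number taken as the limit that a count of 0 allows, would be 0.0555 to 0.0790 CPM. The summed level of the neuroendocrine list was 68.3 and 60.5 CPM in siControl and 58.0 and 59.1 CPM in siLOC730101, most of it from ENO2, an enzyme of glycolysis. The basal keratin KRT5 and the leukocyte marker PTPRC were also at 0 in all 4 libraries. Summed levels reached at most 37.2 CPM for the 5 basal markers, 20.5 CPM for the 6 stromal markers and 1.45 CPM for the 6 immune markers. Of the markers tested, 10 luminal, 3 basal, 3 neuroendocrine, 3 stromal and 1 immune, 0 were called between the groups by edgeR or by DESeq2. DESeq2 gives low genes no adjusted p, so low markers could not be called by it.

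The study asks about LOC730101 and miR-1-3p, so the 3′ UTRs of the antigens were searched for matches to the seed of this miRNA. The mature sequence is given first, with its seed (bases 2 to 8) in capitals. The sites found in the antigens follow on the strand of the transcript, with the match in capitals.
hsa-miR-1-3p: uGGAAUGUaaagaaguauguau
STEAP2, 7mer-m8 site: actgtagaatgccctACATTCCcc
STEAP2, 7mer-m8 site: aagcggctgcccattACATTCCtc
STEAP4, 7mer-A1 site: ggttttaactcatcagCATTCCAa
TSPAN1, 7mer-A1 site: gtggatgggtggggggCATTCCAg

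STEAP2 was the one antigen whose 3′ UTR held ACATTCC, the match to all 7 seed bases. The 6 bases CATTCC of these matches begin at positions 1653 and 4361 of a 3′ UTR of 5062 bases. STEAP4 and TSPAN1 held CATTCCA, at position 3011 of 8509 bases and at position 219 of 432 bases. STEAP2, STEAP4 and TSPAN1 also held 1 further CATTCC each. FOLH1, STEAP1, PSCA, CD276, CEACAM5 and DLL3 held no CATTCC in 3′ UTRs of 96 to 1667 bases. Among the 13358 genes tested that have a 3′ UTR of at least 50 bases, 13.4% held ACATTCC and 36.2% held CATTCC, of which every ACATTCC is one. The UTRs are those of the canonical transcript of each gene in a gencode annotation lifted to GRCh37, and a match by letters is not a measured site.

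The surface antigens spanned a wide range of expression in DaroR cells. Levels are compared between genes as normalized CPM per kilobase of exon, averaged over the 4 libraries, and this scale depends on the exon length in the count table. STEAP1 was highest with 313.4, followed by STEAP2 with 266.9 and FOLH1 with 201.3. TSPAN1 had 50.4 and CD276 had 30.5. DLL3 had 4.71, PSCA 1.24, STEAP4 1.03 and CEACAM5 0.0794. Between neighbours in this order the steps were larger than the spread of the libraries, since their ranges did not overlap, other than for PSCA and STEAP4, with overlapping ranges of 1.04 to 1.38 and 0.920 to 1.16. In siControl, STEAP1, STEAP2 and FOLH1 ranked 58, 72 and 97 among the 19349 genes tested, whose median was 2.58, and 6 of the 9 antigens lay above that median.

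**Figure D1:**
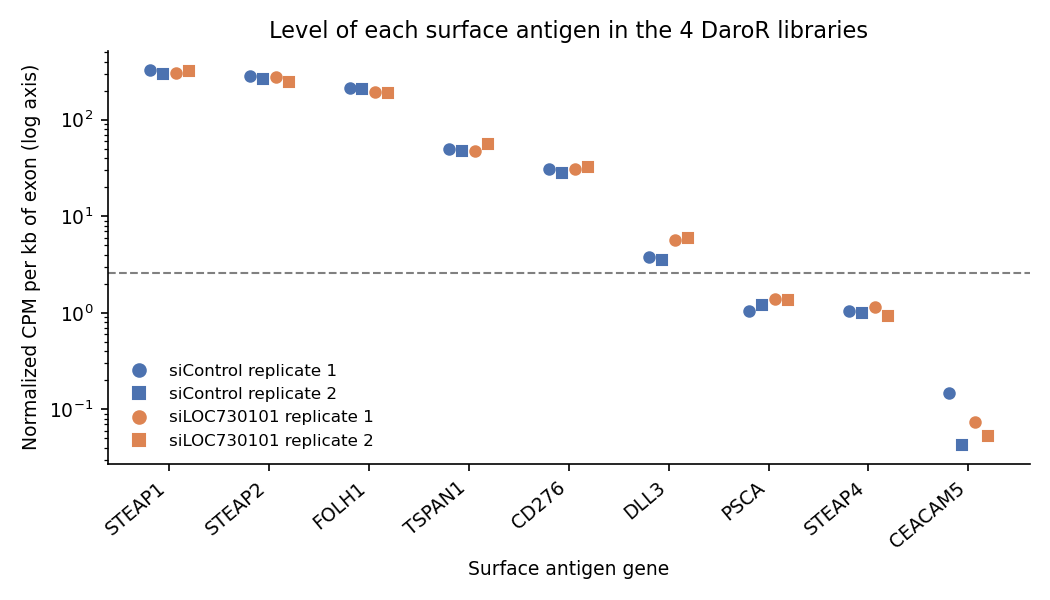
Normalized CPM per kilobase of exon (log axis) for each surface antigen in the 4 DaroR libraries; circles and squares are replicates 1 and 2, blue is siControl and orange is siLOC730101, and the dashed line is the siControl median of all genes tested (2.58). STEAP1, STEAP2 and FOLH1 range from 191 to 331, and CEACAM5 ranges from 0.0429 to 0.149.

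Sequence features at the start sites of the antigens were then listed beside these levels. RefSeq promoter windows on GRCh38.p14, of 250 bases before and 50 bases after the start, were matched for 6 of the 9 antigens, in 8 windows; FOLH1, PSCA and DLL3 had none. The windows of STEAP1 and CEACAM5 are shown because these were the antigens with the highest and the lowest level. Capitals mark CG dinucleotides, the sites of DNA methylation. The window of STEAP1 is chr7:90154219-90154518 and that of CEACAM5 is chr19:41708376-41708675, both on the plus strand.
STEAP1: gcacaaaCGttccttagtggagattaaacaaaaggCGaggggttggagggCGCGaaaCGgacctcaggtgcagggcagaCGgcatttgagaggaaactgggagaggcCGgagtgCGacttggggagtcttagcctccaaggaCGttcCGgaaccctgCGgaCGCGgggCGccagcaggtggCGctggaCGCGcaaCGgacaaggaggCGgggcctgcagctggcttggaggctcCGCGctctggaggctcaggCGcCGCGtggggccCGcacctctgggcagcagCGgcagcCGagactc
CEACAM5: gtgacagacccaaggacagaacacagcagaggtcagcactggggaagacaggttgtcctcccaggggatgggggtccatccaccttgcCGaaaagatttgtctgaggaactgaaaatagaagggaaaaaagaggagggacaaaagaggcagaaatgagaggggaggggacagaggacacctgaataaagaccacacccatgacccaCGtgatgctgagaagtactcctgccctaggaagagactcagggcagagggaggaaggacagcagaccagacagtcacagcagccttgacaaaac

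The STEAP1 window holds 27 CG dinucleotides and the CEACAM5 window holds 2, where the median of 35116 windows is 14. CD276 has 37 and 28 in its pair of windows, STEAP2 has 28 and 2, and STEAP4 has 18. TSPAN1, which was expressed well above the median of the genes tested, has 5. Whether the number of CG dinucleotides goes with the level was not tested, and FOLH1, PSCA and DLL3 have no window. AGAACA, the half-site of the androgen receptor, was searched on both strands and was found once in TSPAN1 and once in CEACAM5, and in 14.8% of all windows. The TATA box letters TATAAA were found in 1 of the STEAP2 windows and in 11.5% of all windows. GGGCGG, the GC box, was found in STEAP4, in both CD276 windows and in 1 STEAP2 window, and in 45.0% of all windows. Nothing was assayed at these windows, and a match by letters is no binding site.

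The effect of LOC730101 knockdown on the surface antigens was then tested. All 9 antigens passed the expression filter, and 0 of them passed an adjusted p of 0.05 when edgeR was run over 19349 genes. In that run, 55 genes were called, or 0.284% of those tested, with 0.212% higher and 0.0724% lower after knockdown. At an unadjusted p under 0.05 there were 2 antigens, DLL3 and FOLH1, where 10.8% of all genes tested passed. The same 10.8% applies to such counts in the lists below. DESeq2 called 1 antigen, DLL3, where it called 3.12% of the 9525 genes to which it gave an adjusted p. STEAP4, PSCA and CEACAM5 were given none and could not be called by it, and the same holds for low genes in the lists below. The log2 fold change (siLOC730101 against siControl) was above 0 in 5 antigens and below 0 in 4, with a median of 0.043 against -0.0021 over all genes tested. In 4 of the 9 the groups did not overlap, which was so in 41.7% of all genes tested. Knockdown libraries were both higher in 3 of them, PSCA, CD276 and DLL3, and both lower in 1, FOLH1, against shares of 21.3% and 20.5% of all genes tested. The smallest two-sided p of an exact permutation test on 1 gene is 0.333 in this design of 2 libraries a group.

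**Figure D2:**
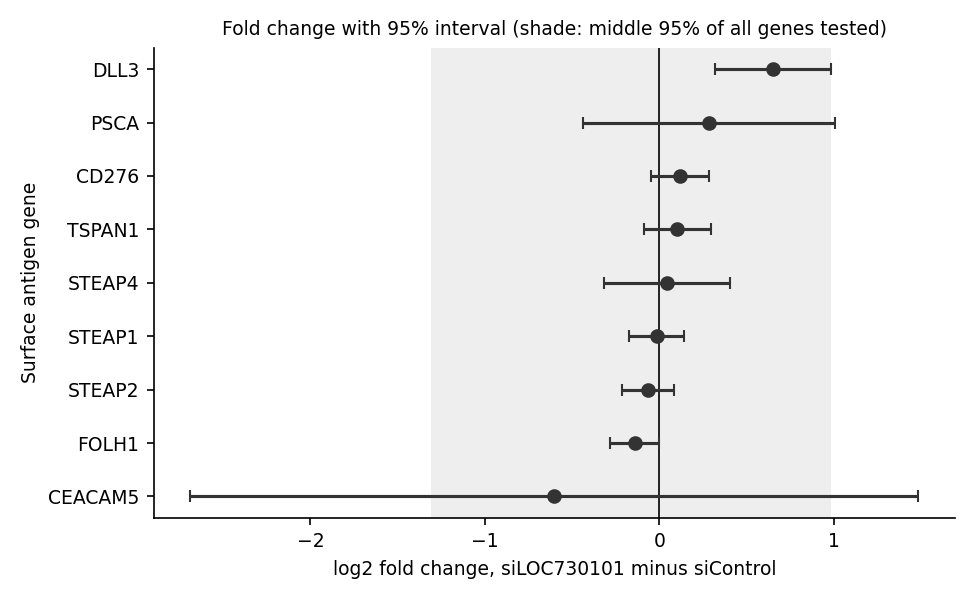
Log2 fold change of each surface antigen, siLOC730101 minus siControl, with its 95% interval from edgeR; the grey shade spans the middle 95% of all genes tested, from -1.31 to 0.98. DLL3 has the highest value (0.65), the interval of FOLH1 ends just below 0, and that of CEACAM5 is by far the widest.

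DLL3, the Notch ligand, showed the highest log2 fold change of the antigens. It lies on chromosome 19 from 39498895 to 39508481 on the plus strand. It had 542 and 429 counts in siControl against 604 and 586 in siLOC730101. The normalized CPM was 10.0 and 9.17 in siControl and 14.7 and 15.4 in siLOC730101, so that both knockdown libraries were above both controls. In RNA from whole cultures, more cells with DLL3 and more DLL3 RNA per cell cannot be told apart. This was a log2 fold change of 0.65 (standard error 0.16, 95% interval 0.32 to 0.98), or 1.57-fold, with an adjusted p of 0.104 in edgeR. The call depended on the setting. DLL3 passed with DESeq2 (adjusted p = 0.0384), with no filter beyond 1 count (adjusted p = 0.0194, edgeR) and without siLOC730101 replicate 1 (adjusted p = 0.0219, edgeR), settings in which 3.12%, 1.37% and 5.56% of all genes tested were called. It also passed when the replicate number was a block (adjusted p = 0.00704, edgeR), where 3.37% of all genes were called, although the numbers were not found to pair the libraries. Its log2 fold change stayed between 0.59 and 0.72 over all 15 alternatives, and its adjusted p ranged from 0.00704 to 0.247.

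**Figure D3:**
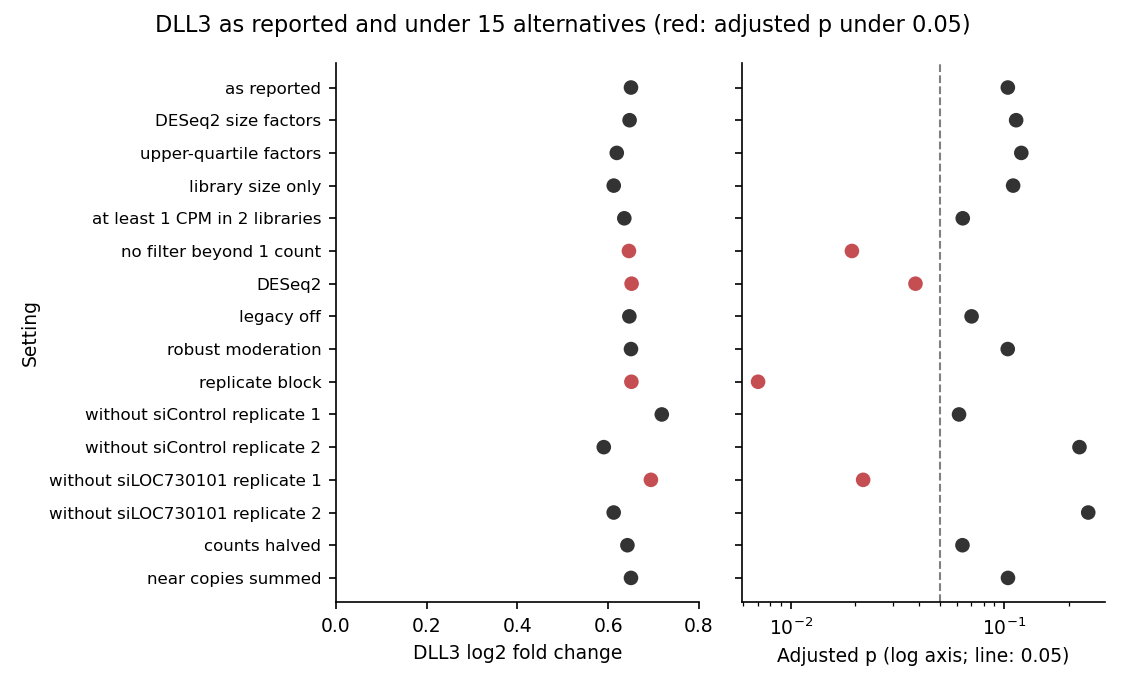
Log2 fold change of DLL3 (left) and its adjusted p (right, log axis, dashed line at 0.05) as reported and under each of 15 alternatives; red points have an adjusted p under 0.05. The fold change stays between 0.59 and 0.72, while the adjusted p crosses the line in 4 alternatives.

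Other genes of the Notch pathway were examined beside DLL3, in a list of 18 ligands, receptors, cofactors and targets. Of these, 17 were tested and 0 were called by edgeR or by DESeq2. An unadjusted p under 0.05 in edgeR was found in 3, where 10.8% of all genes tested passed. Below 0 on the log2 scale were 13 of the 17 and above 0 were 4, with a median of -0.079. The ligand JAG2 had 139.8 ± 6.78 CPM (SD, n = 2) in siControl and 133.6 ± 9.61 CPM (SD, n = 2) in siLOC730101. The protease ADAM10, which cuts Notch receptors, had a log2 fold change of -0.13 with an adjusted p of 0.563 in edgeR, and HES4, a target gene of the pathway, had 0.27 (adjusted p = 0.391, edgeR). The ligand DLL4 was at 0.480 ± 0.316 CPM (SD, n = 2) in siControl, with a log2 fold change of -0.66 that rested on 12 to 38 counts a library. Of the 3 neuroendocrine markers tested, ENO2 had a log2 fold change of -0.16, SYP of 0.13 and NCAM1 of 0.47, with adjusted p-values from edgeR of 0.582, 0.939 and 0.844.

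FOLH1 is a minus-strand gene of chromosome 11, from 49145092 to 49208638, and had 38750 to 61693 counts a library. Its normalized CPM was 1141 and 1112 in siControl and 1022 and 1021 in siLOC730101. Both knockdown libraries were below both controls, and the difference was small. For FOLH1 the log2 fold change was -0.14 (standard error 0.065, 95% interval -0.28 to -0.0024), with an unadjusted p of 0.0467 and an adjusted p of 0.455 in edgeR. It kept its direction under all 15 alternatives, from -0.18 to -0.12, and was called under 0 of them. As the groups did not overlap, leaving out 1 library could hardly turn that direction. The genes whose normalized CPM moved most like that of FOLH1 over the 4 libraries were DLG4, LEMD3 and NCAM2, among 9886 genes with a mean of at least 10 CPM. Their distances from FOLH1 on the log2 scale, each gene centred on its own mean, were 0.0057, 0.0089 and 0.010. With 4 values a gene and so many candidates this is a description only.

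FOLH1B, a near copy of FOLH1 on the same chromosome from 89639237 to 89698718, was low. It had 113 and 104 counts in siControl against 22 and 36 in siLOC730101. The log2 fold change of FOLH1B was -1.54 (standard error 0.45), with an adjusted p of 0.173 in edgeR. Its counts were 0.183% and 0.200% of those of FOLH1 in siControl and 0.0524% and 0.0929% in siLOC730101. Reads that both copies share can be placed on either or dropped, so the level of FOLH1B is uncertain. Adding its counts to FOLH1 left the log2 fold change of FOLH1 at -0.14. Counts this few could hardly move that value, and the sum does not cover dropped reads. Of 12 other genes of folate handling and glutamate peptidases, FOLH1B among them, 9 were tested and 0 were called by edgeR or by DESeq2; 2 had an unadjusted p under 0.05, FOLH1B and the peptidase NAALADL1. NAALADL1 had 20 and 37 counts in siControl against 4 and 2 in siLOC730101 (adjusted p = 0.287, edgeR). FPGS, which adds glutamate to folates, had a log2 fold change of 0.14 with an adjusted p of 0.601 in edgeR, and the folate carrier SLC19A1 had 0.087 (adjusted p = 0.792, edgeR).

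The STEAP genes on chromosome 7 differed far more from each other than between the groups. STEAP1 lies from 90154456 to 90164829 and STEAP2 from 90167590 to 90238137, both on the plus strand and 2.76 kb apart by their outermost annotated exons. The STEAP2 promoter windows examined above lie further inside its span, at 90211490-90211789 and 90213570-90213869. STEAP4 lies 1.85 Mb before STEAP1, from 88270892 to 88306894 on the minus strand. STEAP1, which lacks the part that binds NADPH in its relatives, had 511 and 461 CPM in siControl and 471 and 492 CPM in siLOC730101. Its groups overlapped, and the log2 fold change was -0.015 (95% interval -0.17 to 0.14, adjusted p = 0.973, edgeR). STEAP2, a metalloreductase, had 2481 and 2278 CPM in siControl and 2398 and 2154 CPM in siLOC730101. Its groups overlapped as well, with a log2 fold change of -0.064 (95% interval -0.22 to 0.087, adjusted p = 0.817, edgeR). The ratio of STEAP2 to STEAP1 per kilobase was 0.859 and 0.874 in siControl and 0.901 and 0.776 in siLOC730101, so that the second siLOC730101 library had the lowest ratio and the first the highest.

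STEAP4, a metalloreductase that androgen induces in prostate cells, was low beside its neighbours. It had 630 and 519 counts in siControl against 537 and 393 in siLOC730101, or 11.7, 11.1, 13.1 and 10.4 normalized CPM. The siLOC730101 libraries lay on both sides of the controls. For STEAP4 the log2 fold change was 0.043 (95% interval -0.32 to 0.40, adjusted p = 0.964, edgeR), and it turned to -0.13 without siLOC730101 replicate 1. Per kilobase, STEAP1 exceeded STEAP4 by 263- to 346-fold in the 4 libraries. In counts it was 36.0- to 47.5-fold, since the exon lengths in the count table are 1544 bases for STEAP1 and 11248 for STEAP4. STEAP4 shares 782 of its 11248 exon bases with a gene on the other strand, ENSG00000228113, which had 1 to 4 counts a library. In a list of 10 genes of iron and copper transport with the further STEAP genes, 7 were tested and 0 were called by edgeR or by DESeq2; 1 had an unadjusted p under 0.05. That was FTL, the ferritin light chain, with 321.6 ± 6.46 CPM (SD, n = 2) in siControl and 387.4 ± 47.7 CPM (SD, n = 2) in siLOC730101 (adjusted p = 0.207, edgeR). The transferrin receptor TFRC had a log2 fold change of -0.11 with an adjusted p of 0.637 in edgeR and the ferritin heavy chain FTH1 had -0.029 (adjusted p = 0.940, edgeR). STEAP1B, a near copy of STEAP1, had 18 and 8 counts in siControl against 2 and 0 in siLOC730101 and was not tested.

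The 19 androgen receptor target genes found in the table, STEAP4 among them, were examined as well. Of the 19, 0 were called by edgeR or by DESeq2 and 5 had an unadjusted p under 0.05, where 10.8% of all genes tested did. Their median log2 fold change was 0.043, with 12 above 0 and 7 below. KLK3, which encodes prostate-specific antigen, had 1654 ± 235.5 CPM (SD, n = 2) in siControl and 1835 ± 115.0 CPM (SD, n = 2) in siLOC730101, with a log2 fold change of 0.15 and an adjusted p of 0.565 in edgeR. PLPP1, a lipid phosphatase, had a log2 fold change of 0.27 with an adjusted p of 0.235 in edgeR. SLC45A3, described below, was the lowest of the 19 at -0.24, with an adjusted p of 0.236 in edgeR. Of 8 transcription factors tied to the androgen response or to its loss, 6 were tested and 0 were called by edgeR or by DESeq2, with 1 at an unadjusted p under 0.05. Among them, FOXA1 had 676.8 ± 13.1 CPM (SD, n = 2) in siControl and 730.1 ± 32.6 CPM (SD, n = 2) in siLOC730101, and HOXB13 had a log2 fold change of 0.043.

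TSPAN1, the tetraspanin, lies on chromosome 1 from 46175073 to 46185962 and had 4647 to 6370 counts a library. Its normalized CPM was 117.8 and 112.4 in siControl and 113.1 and 134.5 in siLOC730101. The groups overlapped, and siLOC730101 replicate 2 was the highest library. For TSPAN1 the log2 fold change was 0.10 (95% interval -0.089 to 0.30, adjusted p = 0.752, edgeR), and it turned to -0.029 without that library. Of 27 other tetraspanins, 22 were tested and 0 were called by edgeR or by DESeq2, with 2 at an unadjusted p under 0.05. Per kilobase the highest of them was CD63, at 108.6, which was 236.3 ± 0.413 CPM (SD, n = 2) in siControl and 289.5 ± 45.8 CPM (SD, n = 2) in siLOC730101 (adjusted p = 0.215, edgeR). CD9 had a log2 fold change of 0.045 and CD81 of 0.11, and edgeR gave them adjusted p-values of 0.898 and 0.683.

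CD276, the B7 family member, lies on chromosome 15 from 73683966 to 73714514 and had 6696 to 9064 counts a library. Its normalized CPM was 167.7 and 152.5 in siControl and 171.2 and 176.4 in siLOC730101. Both knockdown libraries were above both controls, and the controls differed from each other by more than the group means did. For CD276 the log2 fold change was 0.12 (95% interval -0.048 to 0.29, adjusted p = 0.636, edgeR). CD276 was the most highly expressed of the B7 genes examined. Of 11 other genes of the B7 and butyrophilin families, 6 were tested and 0 were called by edgeR or by DESeq2, with 0 at an unadjusted p under 0.05. The highest of them per kilobase was NCR3LG1, a ligand of a natural killer cell receptor, at 5.41 against 30.5 for CD276. NCR3LG1 had a log2 fold change of 0.23 with an adjusted p of 0.475 in edgeR, and CD86 and HHLA2 had 0 counts in every library.

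PSCA and CEACAM5, the lipid-anchored antigens, were low in these cells. PSCA lies on chromosome 8 and had 99 and 99 counts in siControl against 100 and 90 in siLOC730101. In normalized CPM these were 1.83 and 2.12 in siControl and 2.43 and 2.37 in siLOC730101, with both knockdown libraries above both controls. Its log2 fold change of 0.28 had a wide 95% interval, from -0.44 to 1.01 (adjusted p = 0.838, edgeR), and a difference was not detectable at this depth. PSCA shares 367 of its 1763 exon bases with JRK on the other strand, which had 1774 to 2785 counts a library, and the counting command names no strand option. Of 14 other genes of the LY6 family, to which PSCA belongs, 6 were tested and 0 were called by edgeR or by DESeq2, with 1, SLURP1, at an unadjusted p under 0.05. SLURP1, a secreted member, had 34 and 30 counts in siControl against 48 and 66 in siLOC730101 (adjusted p = 0.426, edgeR). LY6E was the highest of the family per kilobase, at 14.0.

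CEACAM5, the carcinoembryonic antigen, lies on chromosome 19 from 41708585 to 41730433. It had 32 and 8 counts in siControl against 12 and 8 in siLOC730101, or 0.592, 0.171, 0.292 and 0.211 normalized CPM. The controls lay on both sides of the knockdown libraries. The log2 fold change of -0.60 had a 95% interval from -2.69 to 1.48 (adjusted p = 0.896, edgeR) and turned to 0.55 without siControl replicate 1, the library with 32 counts, so that a difference was not detectable at this depth. Of 11 other CEACAM genes, 6 had 0 counts in every library, 3 were tested, and 0 were called by edgeR or by DESeq2, with 0 at an unadjusted p under 0.05. CEACAM19 was the highest per kilobase, at 0.695, and CEACAM1 had 84 and 98 counts in siControl against 56 and 20 in siLOC730101 (adjusted p = 0.532, edgeR).

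**Figure D4:**
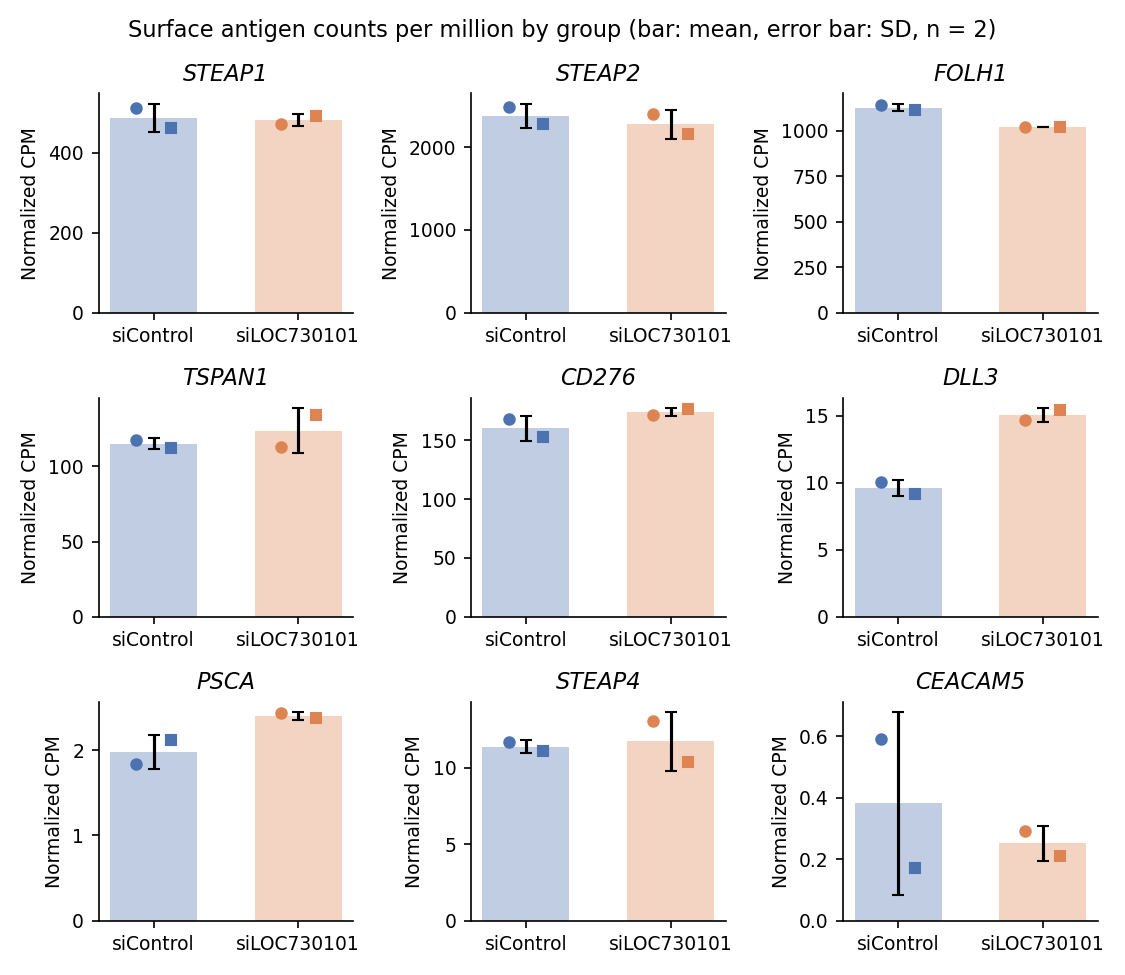
Normalized CPM of each surface antigen in siControl (blue) and siLOC730101 (orange); bars are means, error bars the SD of 2 libraries, circles and squares replicates 1 and 2, and each panel has its own axis from 0. The mean of DLL3 is 9.60 CPM in siControl and 15.1 CPM in siLOC730101 with no overlap, while the STEAP1, STEAP2, STEAP4, TSPAN1 and CEACAM5 panels show overlapping groups.

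A further 26 proteins tried as targets in carcinoma were examined for comparison. Of these, 24 were tested and 0 were called by edgeR or by DESeq2. An unadjusted p under 0.05 in edgeR was found in 4, where 10.8% of all genes tested passed. F3 and FAP had 0 counts in every library. The median log2 fold change of the 24 was -0.020. Per kilobase, none reached the level of STEAP1, STEAP2 or FOLH1: the highest were the kallikrein protease KLK2 at 149.1, the adhesion molecule EPCAM at 112.3 and the transporter SLC45A3 (prostein) at 107.6. SLC45A3 had 437.1 ± 33.4 CPM (SD, n = 2) in siControl and 370.0 ± 26.1 CPM (SD, n = 2) in siLOC730101, with a log2 fold change of -0.24 and an adjusted p of 0.236 in edgeR. EPCAM had a log2 fold change of 0.044 with an adjusted p of 0.898 in edgeR. L1CAM and mesothelin (MSLN), with the largest fold changes of the list, had only 28 to 56 and 8 to 26 counts a library.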

How the data were processed

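RNA of DaroR cells was sequenced as poly(A) libraries. Reads were trimmed by the authors (Trim Galore), aligned, and then assigned to the exons of each gene name by featureCounts 2.0.1; the deposited unit is the count, without normalization. The file header names hg38 with gencode version 41. The aligner is STAR in the study's methods, which name hg19, and BWA in the submitters' processing notes. The header command has no strand or paired-end option, and 66.0% to 70.1% of the counts from 1 to 20 in a library were even, so counts may be mates of one fragment.

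Counts were filtered (filterByExpr), scaled with TMM and tested with edgeR 4.0.16 in R 4.3.3 by glmQLFit and glmQLFTest at the package defaults, with condition as the only term and Benjamini-Hochberg adjustment over 19349 genes. Standard errors come from the log2 fold change and its F statistic. DESeq2 1.42.0 was an alternative. A simulation with known changes was used to check that the procedure recovers changes in the right direction. Its counts were drawn from the fitted model itself, so it cannot show how well that model fits these data. Sample labels name 2 replicates a group. Counts of the libraries of a group differed well beyond sampling noise (chi-square divided by its degrees of freedom, 10.6 in siControl and 13.0 in siLOC730101), so each library was counted on its own. Whether the cultures were separate is not given in the sources used here, so p-values may measure technical spread only.

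The members and lists were chosen with earlier results of these data known. The genes named are the 9 antigens, LOC730101, near copies and overlapping genes, the genes nearest to FOLH1, and from each list those called, up to 3 with the highest level per kilobase and up to 2 with the largest fold change, apart from some that are not reported here; NAALADL1 and SLURP1 fall under the last, and the genes listed at 0, CD86, HHLA2, F3, FAP and the markers, were named after their counts were seen. Promoter and miRNA sequences are from RefSeq (GRCh38.p14). The 3′ UTR sequences are from gencode transcripts lifted to GRCh37 and were joined by gene name.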

Additional observations from a re-analysis of the deposited data

How the results depend on the processing

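Of the antigens, FOLH1, PSCA, CD276 and DLL3 kept their direction under every alternative run. Their groups did not overlap, so leaving out 1 library could hardly turn that direction, and its constancy adds no support for a change. Leaving out 1 library turned STEAP1 to 0.062 (without siControl replicate 1) and 0.025 (without siLOC730101 replicate 1), STEAP2 to 0.0083 and TSPAN1 to -0.029 (without siLOC730101 replicate 2), STEAP4 to -0.13 (without siLOC730101 replicate 1) and CEACAM5 to 0.55 (without siControl replicate 1). Leaving out 1 library each time, these log2 fold changes ranged from -0.084 to 0.062 for STEAP1, -0.13 to 0.0083 for STEAP2, -0.13 to 0.20 for STEAP4, -1.22 to 0.55 for CEACAM5 and -0.029 to 0.23 for TSPAN1. None of the 5 was called in any alternative run. CEACAM5 was filtered out with at least 1 CPM in 2 libraries and with halved counts.

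The number of antigens called was 1, DLL3, with no filter beyond 1 count, with DESeq2 and with the replicate block, and 0 to 1 over the fits that lack 1 library; it was 0 in the other alternatives run. The number of genes higher and lower was 103 and 37 with at least 1 CPM in 2 libraries, 324 and 113 with no filter beyond 1 count, 234 and 63 with DESeq2, 87 and 24 with the legacy method off, and 112 and 34 with halved counts, against 41 and 14 as reported. With library size only, 35 genes were lower. Leaving out each library gave 77 to 923 genes higher and 26 to 272 lower, most of them without siLOC730101 replicate 1. The cause was not tested. A library left alone in its group was assumed to vary like the other group. LOC730101 stayed past the threshold in every alternative.

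With the replicate block, 485 genes were higher and 167 lower, and DLL3 had an adjusted p of 0.00704 in edgeR and FOLH1B of 0.0370. The replicate numbers share only a number: with 2 pairs, the deviations of same-numbered libraries from their group means had a correlation of -0.00090 across genes. At this depth CEACAM5 and PSCA, with 8 to 100 counts a library, allow no statement on a change of less than about the width of their intervals.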
